A study of Homo sapiens with 6 samples.

Results

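The S100 genes encode small calcium-binding proteins, and 10 of them were followed here in KYSE150 cells: S100A2, S100A4, S100A6, S100A7, S100A8, S100A9, S100A10, S100A11, S100A14 and S100A16. They were taken by name from a table of 67140 Ensembl gene identifiers, and all 10 were found in it. KYSE150 is an established line from a human esophageal squamous cell carcinoma (ESCC). The data were bulk poly-A RNA sequencing of 3 samples with a control hairpin (shCtrl) and 3 samples with a hairpin against the long non-coding RNA AC007128.1 (shAC007128.1). Both groups were grown in RPMI 1640 with 10% fetal bovine serum, and per the study's methods stable lines were selected with puromycin after lentiviral transduction. The design therefore held 1 hairpin per group, and nothing in the labels says that the samples were separate cultures, so p-values measure only the spread between these samples.

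S100 proteins carry paired EF-hand motifs that bind calcium, and most work as dimers that expose a target-binding face when calcium is bound. Inside the cell they bind annexins, myosin and cytoskeletal proteins. Some are also released and act on receptors such as RAGE (gene AGER) and TLR4. In stratified squamous epithelium, the tissue from which ESCC arises, the family is known for its roles in differentiation, barrier function and inflammation, and most of its genes lie side by side on chromosome 1 next to the genes of the cornified envelope.

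The study compared the hairpins to ask what depletion of AC007128.1 does to the transcriptome of ESCC cells. Total counts per sample were 55764405 to 78610457. AC007128.1 itself had 69, 33 and 53 counts in shCtrl replicates 1, 2 and 3 and 18, 37 and 15 in shAC007128.1 replicates 1, 2 and 3. The groups overlapped, and its log2 fold change of -0.77 (standard error 0.51) had an adjusted p of 0.271 in edgeR's quasi-likelihood test. The paper reports, from qPCR in ESCC cells, that its hairpin successfully lowered AC007128.1 RNA. At 15 to 69 counts per sample and with this standard error, the sequencing neither showed nor excluded such a reduction. Markers of squamous epithelium stood at unequal levels, with KRT5 at 585 ± 23.2 CPM (SD, n = 3) and TP63 at 126 ± 48.8 CPM in shCtrl cells. Of the list of 8 markers, DSG3 was at 203, KRT17 at 173, PERP at 163, KRT14 at 59.8 and KRT6A at 34.9 CPM. SOX2 was nearly absent at 0.434 ± 0.137 CPM. CPM is the usual depth-scaled count, computed here with edgeR's TMM factors. In bulk RNA, fewer cells of a type and less RNA per cell cannot be told apart.

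The 10 genes lay within 1.63 megabases of chromosome 1 (hg38, GENCODE v44). S100A10 (151982915 to 151993859) and S100A11 (152032506 to 152047907) stood apart from the other 8, which were packed into 0.259 megabases from the start of S100A9 at 153357854 to the end of S100A14 at 153616986. S100A14 and S100A16 were direct neighbours on the minus strand with 1109 bases between them. All 10 genes had promoter windows in RefSeq (GRCh38.p14), each covering 250 bases before and 50 bases after an annotated start, with 14 windows in all because S100A2, S100A8 and S100A16 have several. The windows below are those of the member that fell most clearly, its immediate neighbour, a member that fell moderately and one that rose. Also printed are the windows of a member with an AP-1 match and of the scarce members S100A4 and S100A9. Capitals mark a TATA box (TATAAA, plus strand), a GC box (GGGCGG, both strands) or an AP-1 site (TGANTCA, both strands). For S100A16 the first of its windows is printed. That window and the S100A14 window held none of these letters, and the last pair of the 3 GC boxes of S100A6 overlap each other.

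S100A14, chr1:153616276-153616575, minus strand: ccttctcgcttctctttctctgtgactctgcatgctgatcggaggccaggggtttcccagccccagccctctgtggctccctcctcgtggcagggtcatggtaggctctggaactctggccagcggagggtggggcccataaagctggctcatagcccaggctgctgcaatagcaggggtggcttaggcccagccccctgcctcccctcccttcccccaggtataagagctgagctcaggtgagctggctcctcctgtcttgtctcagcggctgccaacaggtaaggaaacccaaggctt
S100A16, chr1:153613088-153613387, minus strand: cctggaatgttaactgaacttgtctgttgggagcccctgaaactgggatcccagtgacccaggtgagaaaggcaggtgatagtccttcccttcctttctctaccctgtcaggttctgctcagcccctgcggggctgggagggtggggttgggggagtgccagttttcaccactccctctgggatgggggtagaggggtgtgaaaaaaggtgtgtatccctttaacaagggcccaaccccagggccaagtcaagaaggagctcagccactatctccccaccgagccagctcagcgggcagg
S100A6, chr1:153535942-153536241, minus strand: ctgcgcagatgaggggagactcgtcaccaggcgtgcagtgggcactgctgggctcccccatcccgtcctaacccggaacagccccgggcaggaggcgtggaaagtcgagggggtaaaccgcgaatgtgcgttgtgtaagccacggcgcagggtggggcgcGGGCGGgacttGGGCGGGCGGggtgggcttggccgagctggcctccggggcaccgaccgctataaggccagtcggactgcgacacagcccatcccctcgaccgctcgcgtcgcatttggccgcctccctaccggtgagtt
S100A11, chr1:152036955-152037254, minus strand: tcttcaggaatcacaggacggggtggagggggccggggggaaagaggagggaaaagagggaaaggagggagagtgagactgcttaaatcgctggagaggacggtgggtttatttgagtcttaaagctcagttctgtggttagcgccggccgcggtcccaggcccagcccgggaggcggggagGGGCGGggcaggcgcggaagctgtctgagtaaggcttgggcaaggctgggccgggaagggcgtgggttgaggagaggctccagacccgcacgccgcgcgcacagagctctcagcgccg
S100A2, chr1:153565795-153566094, minus strand: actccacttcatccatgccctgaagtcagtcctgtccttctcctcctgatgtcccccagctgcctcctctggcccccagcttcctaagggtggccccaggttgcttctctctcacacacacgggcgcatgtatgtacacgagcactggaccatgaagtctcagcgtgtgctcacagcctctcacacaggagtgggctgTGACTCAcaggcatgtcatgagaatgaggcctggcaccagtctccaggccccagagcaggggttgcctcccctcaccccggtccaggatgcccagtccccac
S100A4, chr1:153545757-153546056, minus strand: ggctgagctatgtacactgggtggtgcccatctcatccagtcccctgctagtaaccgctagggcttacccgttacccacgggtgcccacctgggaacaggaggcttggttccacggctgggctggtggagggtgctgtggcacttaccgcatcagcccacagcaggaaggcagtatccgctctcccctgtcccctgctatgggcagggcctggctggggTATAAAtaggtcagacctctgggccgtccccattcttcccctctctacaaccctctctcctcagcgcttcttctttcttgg
S100A9, chr1:153357604-153357903, plus strand: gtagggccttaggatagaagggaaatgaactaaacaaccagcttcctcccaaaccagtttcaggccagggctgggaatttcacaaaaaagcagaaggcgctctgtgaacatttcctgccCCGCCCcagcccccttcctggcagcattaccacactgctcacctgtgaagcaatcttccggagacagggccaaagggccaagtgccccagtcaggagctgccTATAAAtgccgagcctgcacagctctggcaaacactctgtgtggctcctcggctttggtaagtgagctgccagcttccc

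A TATA box was present in 5 of the 14 windows, which belonged to 4 members, S100A4, S100A7, S100A8 and S100A9. The same letters occurred in 7.33% of the 35116 promoter windows of the whole RefSeq table. In S100A4, S100A7, S100A9 and the second S100A8 window it began 28 to 31 bases before the start. A GC box was found in 5 of the 14 windows, against 45% of all windows. These belonged to 5 members, S100A6, S100A9, S100A10, S100A11 and S100A16, the last through its second window, which is not printed. The AP-1 letters occurred once, in a window of S100A2 (7.71% of all windows), and the C/EBP letters TTNCGNAA in none of the 14 windows (2.57% of all windows). The 4 members with the exact letters TATAAA were also the 4 with the lowest levels in both groups. That coincidence was noticed after the values were seen and is given as a description. It rests on the exact letters, since near matches were not counted. The windows of S100A6 and S100A14, members at higher levels, hold TATAAG, which differs in the last letter.

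Levels between genes were compared per kilobase of annotated exon. In shCtrl cells S100A11 was highest at 678 ± 33.5 CPM per kb (SD, n = 3), and S100A10 followed at 392 ± 30.6. S100A14 (134 ± 2.33) and S100A6 (133 ± 9.07) could not be ordered, since their ranges overlapped. S100A16 (75.3 ± 14.1) and S100A2 (47.6 ± 0.814) came next with separate ranges. S100A9 at 1.75 ± 0.502 and S100A4 at 1.06 ± 0.201 CPM per kb also overlapped, and S100A8 and S100A7 had 0 counts in every shCtrl sample. In shAC007128.1 cells S100A11 (883 ± 30.8) and S100A10 (516 ± 54.1) kept the first ranks, while S100A6 (85.3 ± 21.8), S100A16 (75.2 ± 30.1), S100A2 (51.0 ± 23.6) and S100A14 (41.1 ± 10.5 CPM per kb) formed an overlapping series.

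**Figure D1:**
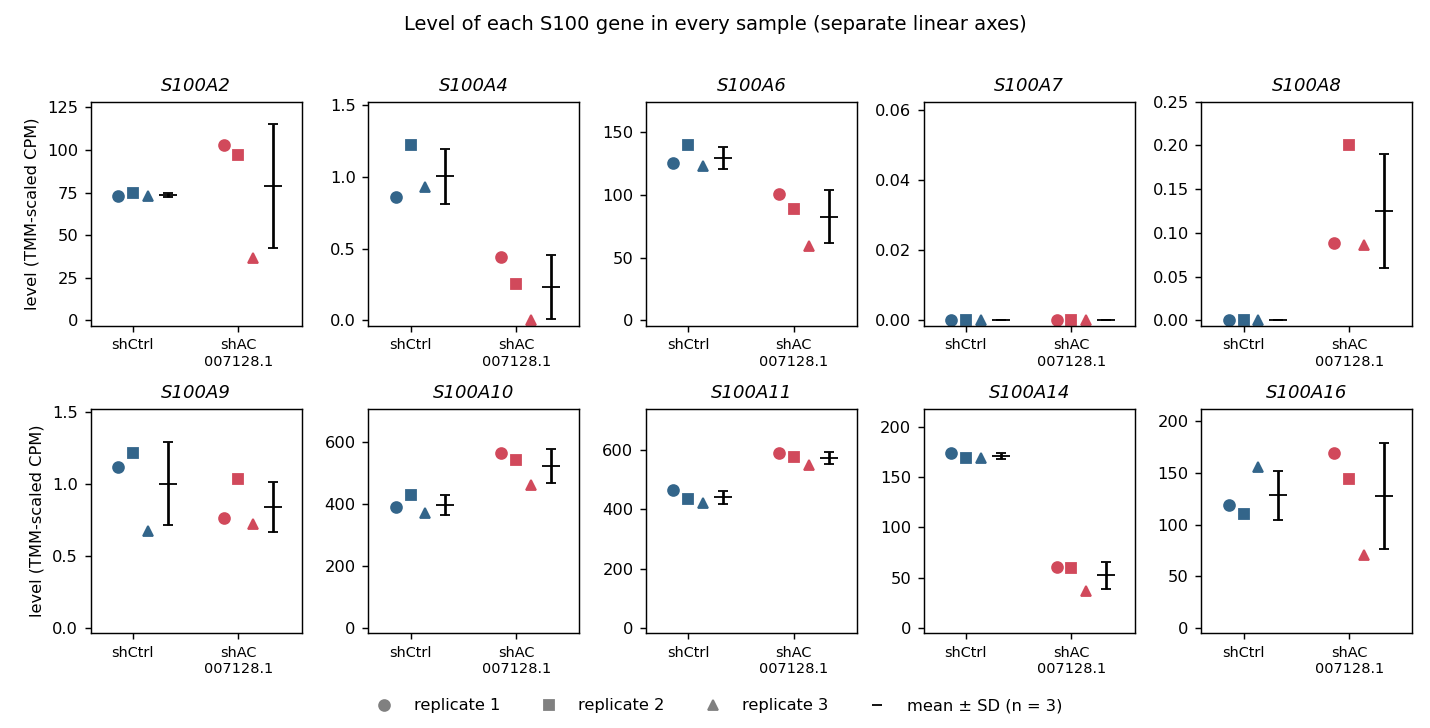
Level of each of the 10 S100 genes, in TMM-scaled CPM on separate linear axes that include 0, with 1 point per sample, the replicate shown by the marker, and the mean ± SD of 3 samples beside each group. S100A14 separated the groups widely, from 169 to 174 CPM in shCtrl and from 36.9 to 60.4 CPM in shAC007128.1 samples. The triangle of shAC007128.1 replicate 3 was the lowest of its group in every gene but S100A7, which was at 0 throughout. In S100A8 it was so only narrowly.

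One library stood apart within its group. Relative to the mean of the other 2 shAC007128.1 libraries, replicate 3 was lower in all 8 members that passed the filter on low counts, with a median log2 difference of -0.69, and in 5 of them (62.5%) by at least 0.5. Over all genes tested the median was -0.01, and 17.1% were lower by that much. Among the 4697 genes tested with at most 2000 exonic bases, as all members have, the share was 27.1%. The deepest gaps among members other than S100A4 were in S100A2 (-1.44) and S100A16 (-1.15), and the smallest was in S100A11 (-0.08). No other library departed from its group in more than 3 members by that margin. What made this library differ was not tested.

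**Figure D2:**
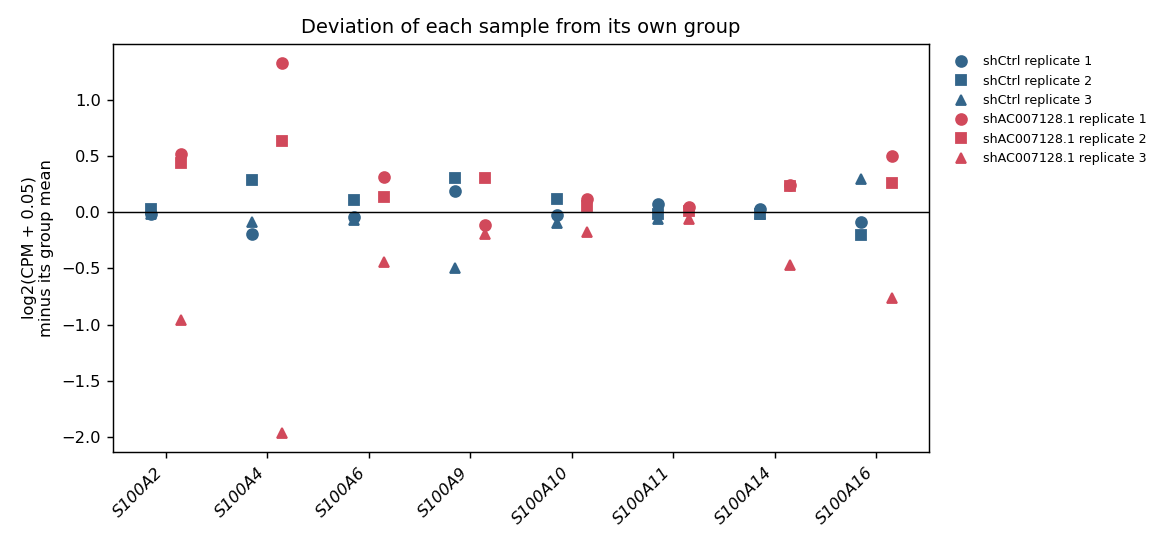
Deviation of each sample from the mean of its own group, in log2(CPM + 0.05), for the 8 members that passed the filter, with colour for the group and marker shape for the replicate. The triangle of shAC007128.1 replicate 3 lies below 0 in all 8 genes, and the shCtrl samples stay close to 0 in S100A2, S100A11 and S100A14.

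Of the 10 members, 8 passed the filter on low counts, and S100A7 and S100A8 did not. At an adjusted p of at most 0.05 and a fold change of at least 2, the limits of the study's methods, 1 member, S100A14, was called lower and 0 higher with edgeR. In the upward direction 2 members had an unadjusted p under 0.05, both below that fold, limma-voom called 0 and DESeq2 called 1, S100A8. Among all 19254 genes tested, 15.7% were called by this rule and 10.1% were called lower. Without the limit on fold change 4 members passed, S100A6 and S100A14 lower and S100A10 and S100A11 higher. By that rule 40.8% of all genes tested were called and 19.8% were called lower, so a share of 4 in 8 was near the background. The groups did not overlap in 5 of the 8 members, against 55.2% of all genes tested. The median log2 fold change of the 8 was -0.13, beside -0.02 over all genes tested.

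S100A14, a member expressed in epithelia and linked to cell motility and invasion, showed the clearest fall. Its level was 174, 169 and 169 CPM in shCtrl replicates 1, 2 and 3 and 60.4, 60.02 and 36.9 CPM in shAC007128.1 replicates 1, 2 and 3. Every shAC007128.1 sample lay far below every shCtrl sample, and 30.7% of the control level was left. On the log2 scale the difference was -1.70 (95% interval -2.14 to -1.27), with an adjusted p of 0.000439. It remained called in all 15 alternative fits, from -1.82 to -1.51.

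S100A6, or calcyclin, which is induced in proliferating cells and binds the calcyclin-binding protein CACYBP, fell less. Its level was 125.7, 139.6 and 123.2 CPM in the shCtrl samples and 100.4, 88.6 and 59.3 CPM in the shAC007128.1 samples. The groups were separate, but the shAC007128.1 samples were more scattered. The difference of -0.65 on the log2 scale (standard error 0.18) left 63.9% of control and had an adjusted p of 0.0260. Of its 971 exonic bases, 37 are shared with a lncRNA on the opposite strand. Without shAC007128.1 replicate 3 the difference was -0.46 (edgeR adjusted p = 0.00738). The call was lost without shCtrl replicate 1, 2 or 3 or without shAC007128.1 replicate 2.

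S100A4, also called metastasin, binds non-muscle myosin and is a widely used marker of mesenchymal and migrating cells. It was scarce in this line, with 63, 98 and 63 counts in the shCtrl samples and 25, 14 and 0 counts in the shAC007128.1 samples. All 3 shAC007128.1 samples lay below all 3 shCtrl samples. The levels were 1.002 ± 0.190 and 0.233 ± 0.223 CPM (SD, n = 3). The log2 fold change of -2.10 had a standard error of 0.90 and an adjusted p of 0.104, so the difference did not pass. It passed with DESeq2 (-2.14, adjusted p = 0.0325), with limma-voom (-3.35, adjusted p = 0.0469), in edgeR with counts divided by 4 (-2.07, adjusted p = 0.0266), and in edgeR without shAC007128.1 replicate 3, where the count was 0 (-1.52, adjusted p = 0.0256).

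S100A10 is the light chain of the annexin A2 heterotetramer, which brings plasminogen activation to the cell surface. Its level was 390, 430 and 370 CPM in shCtrl replicates 1, 2 and 3 and 564, 542 and 460 CPM in shAC007128.1 replicates 1, 2 and 3. The groups did not overlap. S100A10 rose by a log2 fold change of 0.40 (standard error 0.10, adjusted p = 0.0145), a fold of 1.32. Without shAC007128.1 replicate 3 it was 0.47 (edgeR adjusted p = 0.0029). The call was lost without shCtrl replicate 1 or without shCtrl replicate 3.

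S100A11, which binds annexin A1 and takes part in keratinocyte growth control and membrane repair, rose by a similar amount. Its level was 464, 435 and 421 CPM in the shCtrl samples and 590, 577 and 551 CPM in the shAC007128.1 samples. Its spread among shAC007128.1 samples, 3.49% of the mean, was the smallest of the 8 tested members. The log2 fold change of 0.38 (standard error 0.06) had an adjusted p of 0.00286. It stayed past an adjusted p of 0.05 in all 15 alternative fits, from 0.31 to 0.42. The ratio of S100A10 to S100A11 differed by a log2 value of 0.01 between the groups (exact permutation test, two-sided, p = 1.0).

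S100A2 and S100A16 did not pass the test, and both were widely scattered among the shAC007128.1 samples. S100A2, a nuclear member typical of basal epithelial cells, was at 72.8, 75.03 and 72.9 CPM in the shCtrl samples. In the shAC007128.1 samples it was at 102.7, 96.9 and 36.8 CPM, so replicates 1 and 2 lay above the shCtrl range and replicate 3 below it. The log2 fold change was 0.10 (95% interval -0.69 to 0.89, adjusted p = 0.839). Without shAC007128.1 replicate 3 it was 0.43 (edgeR adjusted p = 0.00172). S100A16, a broadly expressed member whose gene adjoins S100A14, was at 119, 110 and 155 CPM in the shCtrl samples and at 169, 144 and 70.6 CPM in the shAC007128.1 samples. Its log2 fold change was 0.00 (95% interval -0.71 to 0.70), and without shAC007128.1 replicate 3 it was 0.28 (adjusted p = 0.230). The interval leaves room for a change of either sign.

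S100A8 and S100A9 form calprotectin, the antimicrobial heterodimer of neutrophils and inflamed squamous epithelium, and S100A7 is psoriasin, an antimicrobial protein of keratinocytes. S100A9 had 82, 98 and 46 counts in the shCtrl samples and 43, 57 and 42 in the shAC007128.1 samples. The groups overlapped, and the log2 fold change was -0.26 (95% interval -1.02 to 0.50, adjusted p = 0.564). S100A8 had 0 counts in all 3 shCtrl samples and 5, 11 and 5 counts in the shAC007128.1 samples. Against an assumed 3 counts per shCtrl library, its mean level of 0.125 CPM was 3.06-fold higher. Low counts in this table pile up at multiples of 4, so how many fragments these counts stand for is not known. The value of 3.06 is therefore no lower bound. DESeq2 called S100A8 higher (adjusted p = 0.0252), and edgeR without the filter on low counts did not (adjusted p = 0.0537). No ratio of S100A8 to S100A9 could be formed in shCtrl cells. S100A7 had 0 counts in all 6 samples, where 3 counts would correspond to 0.0373 to 0.0546 CPM, and so did its close relatives S100A7A and S100A7L2.

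**Figure D3:**
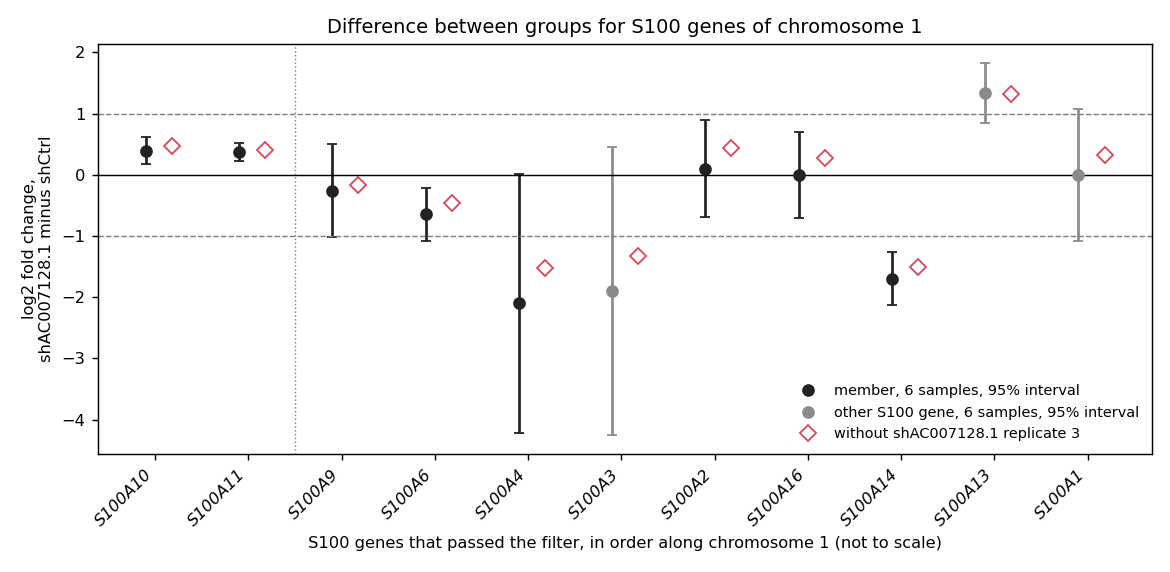
Log2 fold change (shAC007128.1 minus shCtrl) of the 11 S100 genes of chromosome 1 that passed the filter, in chromosomal order and not to scale, with 95% intervals from edgeR's fit of 6 samples, open diamonds for the fit without shAC007128.1 replicate 3, dashed lines at a 2-fold change and a dotted line at the gap before S100A9. S100A14 at -1.70 and S100A13 at 1.34 are neighbours with intervals wholly on opposite sides of 0.

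Along the chromosome, S100A10 and S100A11 were both higher, and S100A14 and its neighbour S100A13 passed the test in opposite directions. In the stretch from S100A6 to S100A1, the log2 fold changes were -0.65 for S100A6, -2.10 for S100A4, -1.90 for S100A3, 0.10 for S100A2, 0.00 for S100A16, -1.70 for S100A14, 1.34 for S100A13 and 0.00 for S100A1. S100A13 is a member that is released with growth factors such as FGF1. It was not among the 10 and lies 1800 bases from S100A14. S100A13 rose from 12.9, 17.3 and 14.7 CPM in the shCtrl samples to 47.5, 27.5 and 38.3 CPM in the shAC007128.1 samples (log2 fold change 1.34, standard error 0.21, adjusted p = 0.00230). It shares 536 of its 2216 exonic bases with a lncRNA on the same strand and 235 with S100A1 on the opposite strand, so its count is uncertain. The ratio of S100A14 to S100A16 differed by -1.66 on the log2 scale. Its groups did not overlap, and the two-sided exact permutation p was 0.1, the smallest that 3 samples against 3 allow (0.2 after adjustment over 4 pairs). The ratio of S100A4 to S100A6 differed by -1.78 on the log2 scale with the count of 0 set to 3 (exact permutation p = 0.1, adjusted 0.2), and by -1.10 without shAC007128.1 replicate 3.

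Other S100 genes were mostly silent. Of 12 further genes with an S100 name, 6 had 0 counts in every sample, among them S100A12, which is typical of neutrophils, and S100B, which is typical of Schwann cells and melanocytes. Only 4 passed the filter, and of these S100A13 was called, where 15.7% of all genes tested were called. S100A3, a hair cuticle member whose gene lies within the annotated span of S100A4, was at 1.61 ± 0.324 CPM (SD, n = 3) in shCtrl and 0.429 ± 0.537 CPM in shAC007128.1 samples (log2 fold change -1.90, standard error 1.004, adjusted p = 0.174). Without shAC007128.1 replicate 1 its log2 fold change was -3.66 and passed (edgeR adjusted p = 0.0308), and with limma-voom it was -3.61 (adjusted p = 0.05003). S100A1 was at 0.933 ± 0.295 and 0.930 ± 0.486 CPM (adjusted p = 0.996). S100PBP, which encodes a binding protein of S100P and is no S100 protein itself, was at 25.9 ± 4.67 and 34.7 ± 3.49 CPM (log2 fold change 0.42, adjusted p = 0.0628).

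Summed over the 10 members, the family took 0.136 to 0.139% of all counts in the shCtrl samples. In the shAC007128.1 samples the share was 0.154, 0.149 and 0.118% in replicates 1, 2 and 3. Replicates 1 and 2 lay above and replicate 3 below the shCtrl range. The log2 difference of the summed CPM was 0.09 (two-sided exact permutation p = 0.5), and 0.21 without shAC007128.1 replicate 3. The parts of the sum were less alike between the groups than the sum itself. On the scale of CPM per kb, S100A14 made up 9.13 ± 0.224% of the sum in shCtrl and 2.46 ± 0.417% in shAC007128.1 samples (SD, n = 3). S100A6 went from 9.11 ± 0.487% to 5.10 ± 0.828%. S100A11 went from 46.4 ± 1.57% to 53.7 ± 3.90% and S100A10 from 26.8 ± 1.55% to 31.2 ± 0.0666%. For each of these 4 shares the groups were separate, with an exact permutation p of 0.1, the smallest possible here. Since the parts add up to the whole, a lower share of one gene raises the others.

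**Figure D4:**
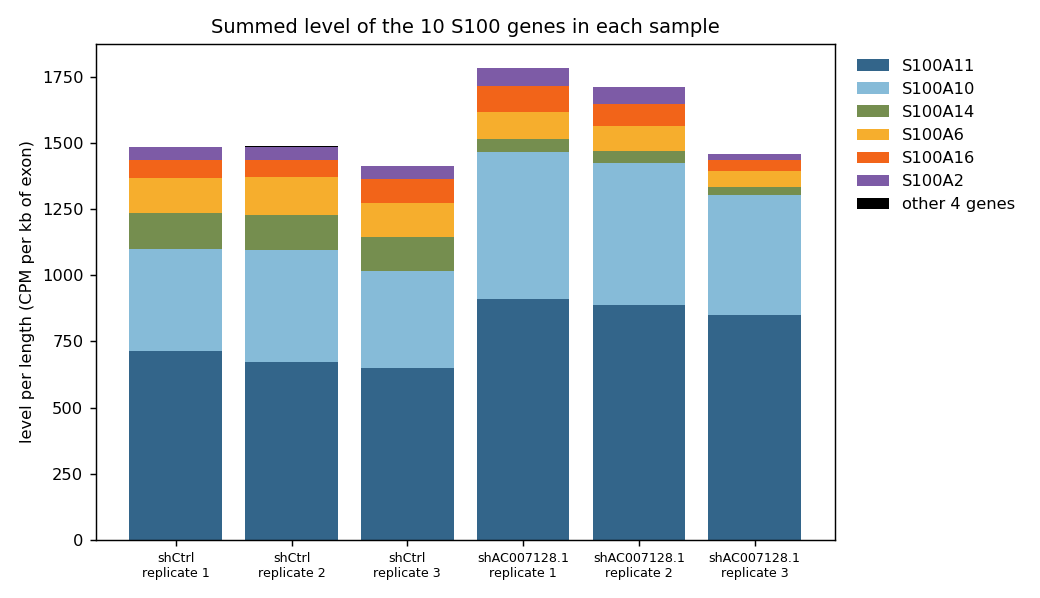
Summed level of the 10 S100 genes in each sample, in CPM per kb of exon, stacked by gene from 0. The sums were 1414 to 1489 in shCtrl and 1460 to 1786 in shAC007128.1 samples, and the S100A14 layer is thinner in all 3 shAC007128.1 samples.

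Known partners and receptors of S100 proteins were followed in a list of 15 genes, of which 14 passed the filter. CACYBP was the 1 gene called at a fold of 2. CACYBP was at 62.0 ± 7.72 CPM in shCtrl and 139 ± 12.9 CPM in shAC007128.1 samples (SD, n = 3), higher by 1.16 on the log2 scale (standard error 0.11, adjusted p = 0.000299), while its partner S100A6 was lower. Part of its exonic sequence is shared with MRPS14 on the opposite strand. Without the limit on fold change 8 genes rose, namely ANXA1, ANXA2, ANXA5, ANXA11, CACYBP, PPP5C, PLAT and NPTN, and AGER and STUB1 fell. These names beyond CACYBP were chosen after their values were seen. Thus 10 of 14 passed by adjusted p alone, where 40.8% of all genes tested did, and 1 of 14 at a fold of 2, where 15.7% did. The median log2 fold change of the 14 was 0.49, beside -0.02 over all genes tested. ANXA2, the partner of S100A10, was at 854 ± 6.05 and 1236 ± 45.01 CPM, and its log2 fold change of 0.53 stood beside 0.40 for S100A10. The log2 ratio of S100A10 to ANXA2 differed by -0.14 (exact permutation p = 0.5, adjusted 0.667). AGER, the gene of RAGE, went from 3.85 ± 0.374 to 2.35 ± 0.247 CPM (log2 fold change -0.71, adjusted p = 0.0171). Of the 2318 exonic bases of STUB1, 985 are shared with JMJD8 on the opposite strand, so its count is uncertain. PPP5C shares 448 of its 7089 exonic bases with a lncRNA on the opposite strand and 188 with another.

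AHNAK, a giant scaffold protein bound by the S100A10 and annexin A2 complex, gave values that could not be compared. It had 75878, 4212 and 67608 counts in shCtrl replicates 1, 2 and 3 and 3605, 88399 and 97423 counts in shAC007128.1 replicates 1, 2 and 3. In each group 1 sample was far below the other 2, and the adjusted p was 0.691. It was singled out after its values were seen.

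Among 13 transcription factors described as regulators of S100 genes, CEBPB was the 1 gene called at a fold of 2. By that rule 15.7% of all genes tested were called. C/EBP beta is known to activate S100A8 and S100A9 in myeloid cells and keratinocytes. CEBPB fell from 376, 382 and 367 CPM in the shCtrl samples to 96.4, 87.6 and 73.0 CPM in the shAC007128.1 samples, or by -2.13 on the log2 scale (standard error 0.11, adjusted p = 2.96e-05). Without the limit on fold change 6 factors fell, CEBPB, KLF4 and CEBPA among them, and 2 rose, where 40.8% of all genes tested were called and 19.8% were called lower. STAT3 (log2 fold change 0.78) and CTNNB1 (0.74) were the ones that rose, and the factors other than CEBPB and TP63 were named after their values were seen. TP63, at 126 ± 48.8 and 104 ± 5.91 CPM, overlapped between the groups (adjusted p = 0.406). The median of the 13 was -0.27, beside -0.02 over all genes tested. Of the 7 genes of the fused S100 type, large proteins that join an S100 domain to repeats of the epidermal barrier, 2 passed the filter, both with differences under a fold of 2. FLG, or filaggrin, had a log2 fold change of 0.88 (adjusted p = 0.00134) and shares 1587 exonic bases with FLG-AS1. HRNR was at -0.10 (unadjusted p = 0.669).

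Apart from CD68 and COL1A1, markers of cells that could carry S100 RNA from outside the line were low. In the myeloid list of 7 genes, FCN1 and CSF3R had 0 counts in every sample, and PTPRC and LYZ had at most 9 counts in any sample. CD68, a lysosomal gene that other cells also express, made up nearly all of that list's summed level, which was 59.6 to 67.8 CPM in shCtrl and 14.1 to 23.7 CPM in shAC007128.1 samples. Among the 3 genes of that list that passed the filter, CD68 was the 1 called, as lower. Of its 2163 exonic bases, 1765 are shared with a lncRNA on the same strand, so its count is uncertain. In the squamous list all 8 genes passed the filter, 4 (KRT14, KRT6A, SOX2 and PERP) were called higher and 1, DSG3, lower. Over all genes tested, 15.7% were called at a fold of 2 and 10.1% were called lower. The summed level of the squamous list was 1339 to 1357 CPM in shCtrl and 2225 to 2710 CPM in shAC007128.1 samples. The summed levels were 15.02 to 16.03 and 20.9 to 23.9 CPM for 5 fibroblast genes, 2.12 to 3.11 and 0.302 to 2.02 CPM for 4 endothelial genes, and 3.32 to 4.51 and 1.96 to 3.02 CPM for 4 genes of melanocytes and Schwann cells. COL1A1 made up most of the fibroblast sum, at 13.9 ± 0.884 CPM in shCtrl and 17.5 ± 0.983 CPM in shAC007128.1 samples (SD, n = 3). Of the 3 fibroblast genes that passed the filter, LUM was called higher and PDGFRB lower. No endothelial, melanocyte or Schwann cell gene was called with edgeR, where 1 endothelial gene and 0 of the others had an unadjusted p under 0.05. The part of these markers in the S100 levels was not tested.

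The genes whose profile over the 6 samples came nearest to a member's were found by the root mean square distance of centred log2 CPM among 12435 genes. For S100A4, the member with the lowest log2 fold change, they were ZC3H10 (0.223), VASH1 (0.723) and ZKSCAN1 (0.780). For S100A10, the member with the highest, they were C1orf216 (0.0332), ZC3H3 (0.0368) and FKBPL (0.0381). Such a distance follows both the difference between the groups and the spread within them. For S100A4, shAC007128.1 replicates 1, 2 and 3 deviated from their group mean by 1.33, 0.64 and -1.97 on the log2 scale. Its nearest gene, ZC3H10, was likewise scattered there, at 3.30 ± 3.06 CPM (SD, n = 3).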

How the data were processed

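Poly-A RNA of KYSE150 cells was made into paired-end TruSeq libraries, read on an Illumina instrument, filtered and mapped by the authors to hg38 with TopHat v2.0.9. The submitters' processing notes list TopHat2 2.0.6 and CASAVA 1.8. The authors deposited 1 table of estimated counts, whole numbers per Ensembl identifier without normalization. The counting program, annotation release and use of strand are not given in the sources used here. Low values pile up at multiples of 4, as in shCtrl replicate 1, where 1355 genes stood at 4 against 761 at 3 and 993 at 5.

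Names, positions and exon lengths came from GENCODE 44 (hg38), which held 60357 of the 67140 identifiers. Genes were filtered with filterByExpr, leaving 19254, scaled by TMM factors of 0.967 to 1.042 and tested in R 4.3.3 with edgeR 4.0.16 (glmQLFit, glmQLFTest) across all genes. The standard error is the log2 fold change over the root of F. Single values used exact permutation tests (scipy 1.17.1), adjusted by Benjamini-Hochberg over the pairs. Alternatives were DESeq2 1.42.0, limma-voom (limma 3.58.1), other scalings and filters, counts divided by 4, no limit on fold change, the replicate block and each sample left out. The fits were tested on simulated counts. Depths were 55764405 to 78610457 counts, and 3 counts were taken as the floor, which covers at most counting error. If 1 fragment was recorded as 4 counts, which is not known, that floor is under 1 fragment. All 6 samples were grouped by their titles, and 0 sample columns were left unmapped.

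The named genes are the members, other S100 genes past the filter, up to 5 called genes of each list, the nearest profiles and AC007128.1. Members and lists were chosen with earlier results of these data known.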

Additional observations from a re-analysis of the deposited data

How the results depend on the processing

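The count of 1 member called, which was lower, became 3 with DESeq2 (2 lower, S100A4 and S100A14, and 1 higher, S100A8, against shCtrl counts of 0), 2 lower with limma-voom and 2 lower with counts divided by 4 (S100A4 and S100A14 in both), and 4 without a limit on fold change (2 lower, 2 higher). With any single sample left out it stayed at 1 to 2, and S100A4 was the added gene without shAC007128.1 replicate 3. The 3 calls in the 4 lists of other S100, fused, partner and regulator genes became 20 without that limit. In the same order, these lists had 4, 2, 14 and 13 genes tested. Over all genes tested, 15.7% were called at a fold of 2 and 40.8% without that limit. The number of members past an adjusted p of 0.05 alone, 4, was 2 without shCtrl replicate 1 or 3, 3 without shCtrl replicate 2 or shAC007128.1 replicate 2, and 6 without shAC007128.1 replicate 3 or with DESeq2. S100A2 changed sign with limma-voom (-0.0457) and the replicate block (-0.0301), and ranged from -0.14 to 0.43 with each sample left out. On the same footing S100A16 ranged from -0.26 to 0.28 and S100A1 from -0.44 to 0.32. The cause of these changes was not tested. Same-numbered samples deviated from their group means with correlations of 0.031, -0.025 and -0.03, so the numbers were not taken to pair the samples, and the replicate block left 1 member called. The summed level and the 4 ratios moved by less than the spread between samples under the alternatives run. S100A4, S100A8 and S100A9 are limited by their counts.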
